A study of Mus musculus with 76 samples.

Results

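Male C57Bl/6J mice that had been fed the Western diet (WD) were compared between collection ages of 750 d and 530 d. The members are 10 of the 76 libraries of the series, taken by their titles: M31 to M35 (5 sham-treated WD males, 750 d) and M11 to M15 (5 sham-treated WD males, 530 d), all at a dose of 0 cGy, each labelled as right ventricular tissue of 1 mouse. The WD is rich in fat. It was given in mid-life and stopped before either collection, so the 750 d mice were both older and longer off the diet, and these cannot be told apart. The ages come from the study's own sample table, since the sample labels give none. The comparison asks how right ventricular transcripts of WD males differ between an earlier and a later collection. Sham-treated males on normal diet (ND), 5 at 530 d and 5 at 750 d, are used beside it.

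The authors counted reads on the last 500 bases of each gene. Totals ran from 12945124 (M14) to 18212795 (M11) counts at 530 d and from 12282254 (M33) to 18618932 (M34) at 750 d. Levels are given as CPM, the counts scaled to 1000000 of a library's effective size, which is its total over the genes tested times a scaling factor. That factor ran from 0.843 (M11) to 0.925 (M15) at 530 d and from 0.945 (M32) to 1.22 (M31) at 750 d. A higher factor lowers a library's CPM, so the size of each CPM difference between the ages depends on it. A log2 fold change is 750 d against 530 d, so a positive value is higher at 750 d.

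The right ventricle pumps blood to the lungs at low pressure. Its cardiomyocytes make most of their ATP by oxidising fatty acids in mitochondria, and they contract when calcium leaves the sarcoplasmic reticulum and is pumped back by the ATPase that Atp2a2 encodes. Endothelial cells, fibroblasts, pericytes and resident macrophages lie between the myocytes, and RNA from whole tissue mixes them all. In such RNA, fewer cells of a type and less RNA per cell cannot be told apart.

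Libraries that stand apart come first. M12, M13, M14 and M15 had near-identical counts: the mean chi-square per gene between their 6 pairs lay between 1.72 and 2.48. M11 differed from each of them by 62 to 70.7, the 10 pairs within 750 d by 37.7 to 189, and the 25 pairs across ages by 60.6 to 276. Whether those 4 libraries come from 1 mouse is not known. The comparison was therefore also made with M12 to M15 summed into 1 column (2 columns against 5), and with RNA integrity number (RIN) as covariate. A fold change given alone is from 5 libraries against 5. The SE and p printed with it count M12 to M15 as 4 replicates. If those libraries come from 1 mouse, both are too small. An SD at 530 d mostly measures M11 against the other 4.

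**Figure D1:**
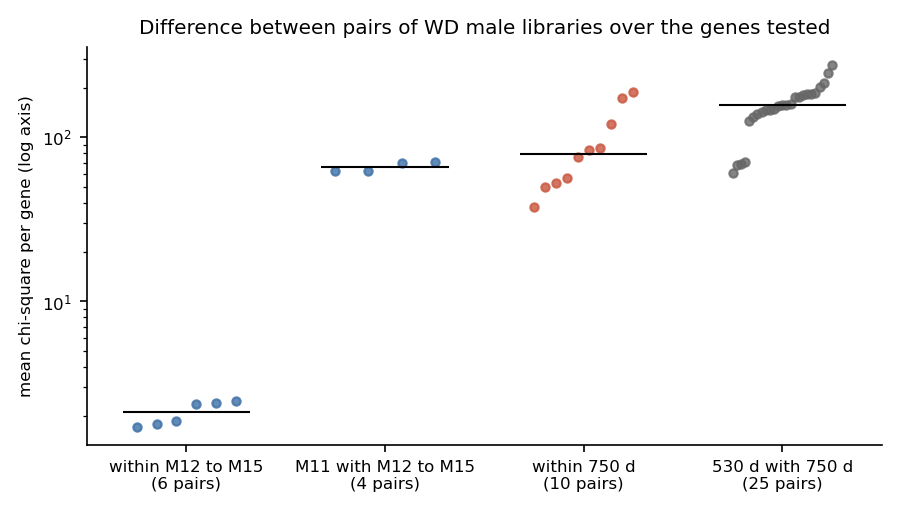
Each point is 1 pair of WD male libraries, with the mean chi-square per gene over the 10995 genes tested on a log axis and a line at the median of each kind of pair. Pairs within M12 to M15 lie between 1.72 and 2.48, and every other pair lies at 37.7 or above.

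RIN was 3.9, 5, 5.6, 5.3 and 5.7 in M11 to M15 and 6.6, 3.8, 7.2, 7.5 and 6.3 in M31 to M35. The mean was 5.1 ± 0.725 (SD, n = 5) at 530 d and 6.28 ± 1.47 (SD, n = 5) at 750 d, a difference of 1.18 (two-sided exact permutation test, p = 0.159, where the smallest possible p is 0.00794). M11 and M32 have the lowest integrity of their groups. With M12 to M15 counted once it was 1.63 (exact permutation p = 0.286, where the smallest possible p is 0.0952). Without M32 the difference was 1.8 (exact permutation p = 0.0159, the smallest that 5 against 4 allows). Library names start with W in all 5 mice at 530 d and with WG in all 5 at 750 d. What the prefix stands for is not stated, and it cannot be told apart from age in these mice.

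Markers of neighbouring tissue also set single libraries apart. The 10 atrial genes summed to 13370 CPM in M31, against 365.9 to 864.5 CPM in M32 to M35 and 1649 to 2713 CPM at 530 d. In M31 the atrial light chain Myl4 was at 3960 CPM, and at 4.25 to 110 CPM in the other 750 d libraries. Genes of the lung epithelium, led by the surfactant protein Sftpc, summed to 67.25 CPM in M11 and to between 0.7704 and 2.8 CPM elsewhere, and 0 of those 7 genes could be tested. M11 also held the most red blood cell transcripts (1922 CPM) and macrophage transcripts (2910 CPM). Of the 10 atrial genes 5 were tested and 0 passed in any of the 3 edgeR fits. Without M31, Myl4 (-3.02), Dkk3 (-1.54) and Stard10 (-1.18) passed as lower with 5 against 4. Myl2, the ventricular regulatory light chain, was abundant in every library, between 4070 CPM (M31) and 15400 CPM (M32).

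**Figure D2:**
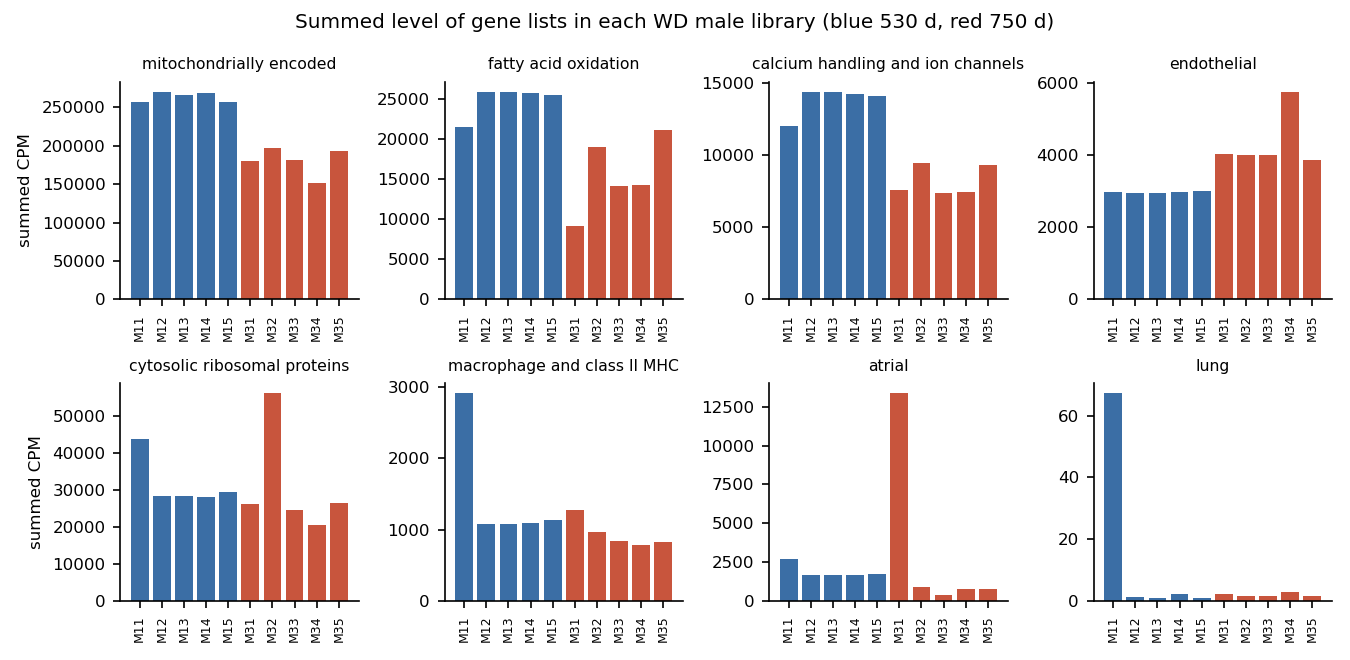
Bars give the summed CPM of a gene list in each library, blue for 530 d (M11 to M15) and red for 750 d (M31 to M35), each panel on its own axis from 0. Mitochondrially encoded, fatty acid oxidation and calcium handling genes are lower in all 750 d libraries and endothelial genes are higher, while single libraries stand out for ribosomal (M32), macrophage and lung (M11) and atrial (M31) genes.

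A large share of the transcriptome differed between the ages. Of 10995 genes tested, 5628 passed an adjusted p of 0.05 with 5 libraries against 5 (edgeR quasi-likelihood test): 3154 were higher at 750 d (28.7%) and 2474 lower (22.5%). With M12 to M15 summed, 1844 (16.8%) were higher and 1238 (11.3%) lower, and with RIN as covariate 2874 (26.1%) and 2099 (19.1%). All 3 fits called 2952 genes in the same direction, 1828 higher (16.6%) and 1124 lower (10.2%), with log2 fold changes between -2.42 and 3.33. In 2834 of these the CPM values of the groups did not overlap, as in 4183 of the 10995 genes tested. "Rose" and "fell" are used below only for genes past the threshold in all 3 fits, in mice of different ages rather than the same mice over time.

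Leaving out M11 alone, with M12 to M15 kept as 4 libraries, gave 5533 calls and 2951 of the 2952 genes were still called. With M12 to M15 summed and M11 left out, 1 column faced 5 and was assumed to vary like the 750 d libraries. A lone column gives no spread of its own, so no count of calls is drawn from that layout. All 2952 genes kept their sign there. They had been chosen on fits with the same libraries, so the kept signs are no independent support. With M12 to M15 summed and RIN as covariate together, 1770 genes passed, 1633 of them among the 2952.

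Peg3 (Ensembl gene ENSMUSG00000002265, GRCm39 chromosome 7, 6706882 to 6733468, minus strand), a paternally expressed zinc finger gene, had the highest log2 fold change of the genes that rose. It stood at 4.4, 3.98, 3.74, 3.81 and 4.55 CPM in M11 to M15. Its levels in M31 to M35 were 85, 17.7, 25.4, 56.8 and 20.1 CPM. All 750 d libraries thus lay above all 530 d libraries, with M31 and M34 far above the other 3. The log2 fold change was 3.33 ± 0.41 (SE; edgeR adjusted p = 3.48e-05), 3.29 with M12 to M15 summed and 2.83 with RIN.

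Firre, a long noncoding RNA from the X chromosome that helps organise nuclear chromatin, was at 15.4, 23.7, 22.3, 21.3 and 21.3 CPM at 530 d. At 750 d the libraries held 144, 91, 168, 120 and 109 CPM, and the log2 fold change was 2.6 ± 0.18 (SE; edgeR adjusted p = 1.36e-06). Tet2, which oxidises methylated cytosine, had 4.99 to 8.96 CPM in the younger group and 28.3 to 49 CPM in the older one (log2 fold change 2.39 ± 0.18). Med12, a subunit of the Mediator kinase module, went from a mean of 10.7 ± 2.34 CPM to 58 ± 28.2 CPM (SD, n = 5 each), with M32 lowest of the 750 d libraries at 21.5 CPM. Its log2 fold change was 2.43, and 1.73 with RIN in the model.

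Both Gbp9, a guanylate-binding protein, and Oas2, an antiviral oligoadenylate synthetase, are induced by interferon. Gbp9 had 4.99, 8.03, 8.28, 8.05 and 7.77 CPM in M11 to M15 and 47.8, 30.5, 55, 48.7 and 41.3 CPM in M31 to M35. Oas2 stood at 11 to 13.4 CPM and at 47.5 to 85.4 CPM. Neither pair of groups overlapped, and the log2 fold changes were 2.59 ± 0.18 and 2.38 ± 0.17 (SE). Gbp9 belongs to a family of close copies whose reads the counting could share, so its own level is uncertain. The rest of the 10 largest were Paxbp1 (3.01), Ints6l (2.58), Vwa3a (2.53) and Nktr (2.49), of which Nktr encodes a cyclophilin-like protein.

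Nfix (ENSMUSG00000001911, chromosome 8, 85426505 to 85527046, minus strand), a nuclear factor I transcription factor, had the lowest log2 fold change of the genes that fell. It was at 385, 260, 258, 255 and 244 CPM at 530 d. M31 to M35 had 46.9, 17.5, 61, 74.9 and 61.2 CPM. That is a log2 fold change of -2.42 ± 0.3 (SE; edgeR adjusted p = 3.8e-05), and -2.94 with RIN. Lyl1 overlaps Nfix on the other strand, and without stated use of strand their reads cannot be told apart.

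Lbh, a transcriptional cofactor of limb and heart development, had 740, 749, 777, 739 and 698 CPM in the younger mice. The older mice had 58.4, 156, 132, 190 and 265 CPM, M31 the least (log2 fold change -2.21 ± 0.3, SE). Ckm, the muscle creatine kinase that rebuilds ATP from phosphocreatine, was at 1010, 764, 760, 769 and 731 CPM and then at 112, 145, 164, 230 and 253 CPM. It fell by 2.16 on the log2 scale (SE 0.22, edgeR adjusted p = 8.55e-06), and by 2.29 with M12 to M15 summed. Adra1b, the alpha-1B adrenergic receptor, had means of 79.4 ± 4.91 and 18.3 ± 9.34 CPM (SD, n = 5 each).

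Others among the 10 largest lower genes were Lrrc4b (-2.22), Rnf5 (-1.94), Gal3st3 (-1.93), Tesk1 (-1.81), Psmb7 (-1.8) and Insyn1 (-1.77). Psmb7 encodes a catalytic subunit of the proteasome core and Rnf5 a ubiquitin ligase of the endoplasmic reticulum. Lrrc4b was at 71.4 CPM in M11 and 18.3 to 24.4 CPM in M12 to M15, so its size depends on M11, yet all 750 d values (5.06 to 7.83 CPM) lay below. Rnf5 overlaps the antisense gene Gm20463. Predicted genes were not named: 61 of the 2952 carry such symbols, 45 higher and 16 lower.

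**Figure D3:**
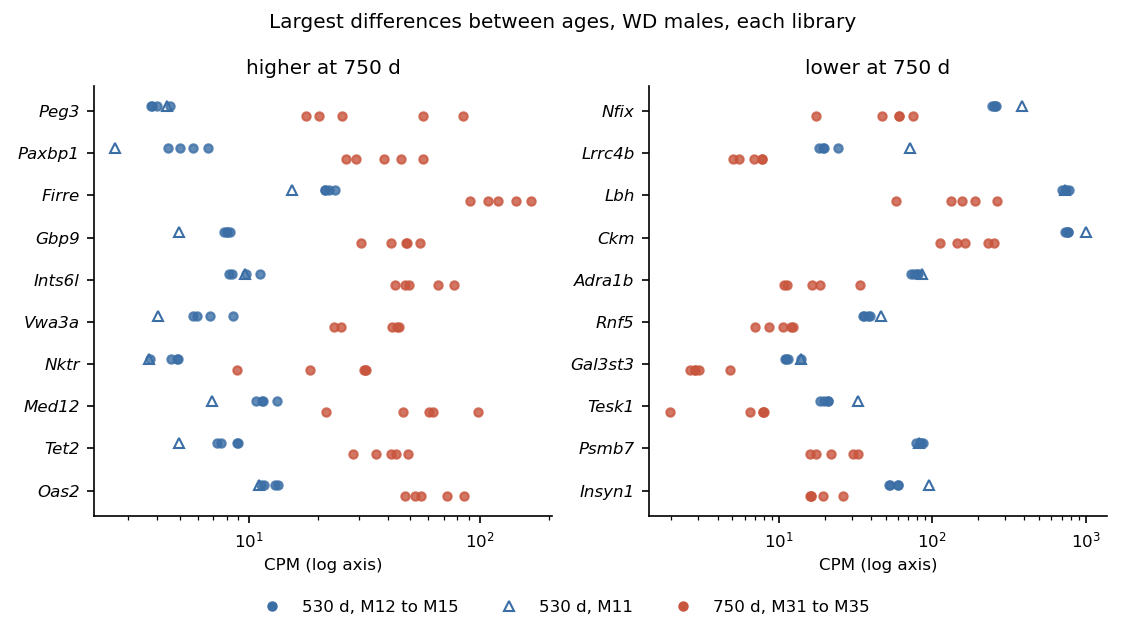
The 10 genes with the largest higher and the 10 with the largest lower levels at 750 d, with the CPM of each library on a log axis (filled blue for M12 to M15, open triangle for M11, red for M31 to M35). In every gene all red points lie on 1 side of all blue ones, as the rule for choosing them required.

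Fatty acid oxidation genes were lower at 750 d. Of the 30 on the list 29 were tested: 1 was higher and 19 lower with 5 against 5, and 1 rose and 8 fell in all 3 fits. Over all genes tested 28.7% were higher and 22.5% lower with 5 against 5, and 16.6% rose and 10.2% fell, the shares to set beside the counts of each list. The median log2 fold change was -0.84 (-0.65 summed, -0.83 with RIN), against 0.03 over all genes tested. Their summed level was 21510, 25870, 25840, 25770 and 25540 CPM in M11 to M15 and 9161, 19040, 14100, 14200 and 21150 CPM in M31 to M35, with M31 lowest and M35 just under M11.

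The 8 that fell were the carnitine-acylcarnitine carrier Slc25a20 (-1.2), the acyl-CoA dehydrogenases Acadl (-0.96) and Acads (-1.34), both trifunctional protein subunits Hadha (-1.27) and Hadhb (-1.27), Hadh (-1.34), Eci1 (-1.09) and the lipid droplet protein Plin5 (-1.12). Hadha, for one, averaged 1770 CPM at 530 d and 733 CPM at 750 d. The gene that rose was Cpt1a, the carnitine palmitoyltransferase form most abundant in liver: 22.3 to 31.9 CPM, then 37 to 46.2 CPM (log2 fold change 0.48 ± 0.12). Its heart and muscle counterpart Cpt1b had too few counts in some libraries to be tested, with means of 1.83 and 8.44 CPM.

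Acadvl, the very-long-chain dehydrogenase, shows how M11 can matter. It had 80.2 CPM in M11, 300 to 324 CPM in M12 to M15 and 42.2 to 147 CPM at 750 d, so the groups overlapped. Its log2 fold change of -1.56 passed with 5 against 5 (edgeR adjusted p = 0.00379) and not with M12 to M15 summed (-1.13). Lpl, the lipase that frees fatty acids for uptake, was at 4590 ± 304 and 4440 ± 1140 CPM (SD, n = 5 each), with a log2 fold change of -0.05. Fabp3, the cytosolic fatty acid carrier, had 5390 to 5650 CPM and 1350 to 4190 CPM (log2 fold change -1.03), and passed with 5 against 5 and with RIN but not when summed.

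Glucose-handling genes moved likewise: 20 of 20 were tested, 1 higher and 14 lower with 5 against 5, 1 and 5 in all 3 fits (22.5% and 10.2% of all genes lower), with a median of -0.63 (-0.67 summed, -0.47 with RIN). Pdk2, a kinase that shuts down pyruvate dehydrogenase, had 862, 593, 610, 600 and 587 CPM and then 168, 211, 216, 250 and 302 CPM. The insulin-responsive transporter Slc2a4 (-1.12), hexokinase Hk1 (-1.04), phosphofructokinase Pfkm (-0.82) and lactate dehydrogenase Ldhb (-0.98) also fell. Pfkfb2, the cardiac enzyme whose product activates phosphofructokinase, rose instead: 21, 23.6, 19.2, 23 and 21.2 CPM at 530 d, 81.5, 71.6, 64.2, 84 and 78.2 CPM at 750 d. With 5 against 5 its log2 fold change was 1.81 ± 0.11 (SE; edgeR adjusted p = 1.16e-06). With M12 to M15 summed it was 1.83 ± 0.2 (SE; edgeR adjusted p = 0.00147). All 750 d values lay above all 530 d values, of which M12 to M15 are from near-identical libraries.

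Nuclear genes of the respiratory chain and ATP synthase had 83 of 87 members tested, 1 higher and 40 lower with 5 against 5. In all 3 fits 0 rose and 15 fell, beside 10.2% of all genes that fell, and the median was -0.42 (-0.53 summed, -0.25 with RIN). Sdhc, a membrane anchor of succinate dehydrogenase, had 900, 760, 773, 784 and 751 CPM in M11 to M15 and 226, 368, 252, 275 and 432 CPM in M31 to M35 (log2 fold change -1.35 ± 0.18). Complex I subunits among those that fell include Ndufa9 (-1.34), Ndufb6 (-1.04), Ndufc2 (-0.82), Ndufs1 (-1), Ndufs7 (-0.62) and Ndufs8 (-0.62). Beside Sdhc of complex II, complex III gave Uqcrc2 (-1.34, with overlapping groups) and Cyc1 (-0.81), complex IV Cox5a (-1.23), Cox7b (-0.71) and Cox7c (-0.71), and the ATP synthase Atp5mc2 (-1.17) and Atp5mk (-0.78). Ndufb2 was the member higher with 5 against 5, at 6.65 and 9.59 CPM, on average, with overlapping groups, and did not pass when summed.

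Genes on the mitochondrial chromosome made up 23.7 ± 1.26% of counts at 530 d and 19.8 ± 1.56% at 750 d (SD, n = 5 each). Their summed level was 257700, 270300, 266300, 269000 and 257700 CPM in M11 to M15 and 180800, 197200, 181800, 152000 and 193800 CPM in M31 to M35. The scaled levels did not overlap, while as a share of counts M11 and M31 were both at 21.5%. The median log2 fold change was -0.37 on WD and -0.04 on ND, and the diets were not compared over this list. Of 13 coding genes 11 were tested, and 5 were lower with 5 against 5 (22.5% of all genes). In all fits 3 fell (10.2% of all genes): mt-Nd2 (-1.19), mt-Nd4 (-0.83) and mt-Nd6 (-1.17), all parts of complex I. The most abundant, mt-Co1, was at 48200 CPM in M11, 78000 to 83300 CPM in M12 to M15 and 58800 to 71800 CPM at 750 d, and did not pass (log2 fold change -0.16). Polyadenylation sets which mitochondrial RNAs a poly-A library captures, and its part in these levels was not tested.

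Calcium handling and ion channel genes had 19 of 20 members tested, 2 higher and 13 lower with 5 against 5 (22.5% of all genes lower), 2 and 4 in all 3 fits (10.2% lower). Their median was -0.64 (-0.58 summed, -0.51 with RIN), and their sum was 12070 to 14410 CPM at 530 d against 7416 to 9453 CPM at 750 d. Kcnj11, the pore of the ATP-sensitive potassium channel, had 407, 254, 253, 254 and 253 CPM and then 81.3, 93, 72.7, 92.6 and 115 CPM (log2 fold change -1.64 ± 0.18). Jph2, which ties the sarcoplasmic reticulum to the T-tubule, fell by 1.4, and the potassium channel genes Kcnq1 and Kcnh2 by 0.85 and 0.7.

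The channel genes that rose were Kcnd3 and Cacna1c. Kcnd3, of the transient outward potassium current, went from 3.68, 8.74, 8.28, 8.47 and 7.7 CPM to 24.6, 16.4, 19.5, 13.1 and 18.9 CPM (log2 fold change 1.33 ± 0.22). Cacna1c, the L-type calcium channel, went from 194 to 391 CPM on average (1.01 ± 0.17). Atp2a2 was at 5710 CPM in M11, 7870 to 8080 CPM in M12 to M15 and 3410 to 5140 CPM at 750 d. Its log2 fold change of -0.85 passed with 5 against 5 and with RIN and not when summed. Pln, its inhibitor, stood at 1220 and 629 CPM on average, with the same pattern of calls.

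Part of the sarcomere genes were lower. All 20 were tested, with 0 higher and 10 lower with 5 against 5 (22.5% of all genes lower), 0 and 4 in all 3 fits (10.2% lower), and a median of -0.44 (-0.54 summed, -0.4 with RIN). Those that fell were Ckm, myoglobin Mb (7860 to 2650 CPM on average, log2 fold change -1.57), cardiac actin Actc1 (11000 to 4760 CPM, -1.22) and Ldb3 (-0.72). Ttn, Nebl, Mybpc3 and Myh6 lay between -0.07 and 0.2 and did not pass with 5 against 5. Myh6, the main cardiac myosin, was at 6610 CPM in M32 and at 14500 to 19100 CPM in the other 750 d libraries, and with RIN as covariate its log2 fold change was -0.58 and passed. Of 9 ventricular markers tested, 1 rose (Prdm16, 1) and 2 fell (Lbh and Mylk3). The sum of the ventricular list was lowest in M31, the library richest in atrial transcripts, at 7643 CPM. Without M31, all 2952 genes called in the 3 fits were still called in the same direction with 5 libraries against 4. On the sum of M12 to M15, 2380 of them were still called without M31, and 1576 with RIN as covariate as well.

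Of the hypertrophy and fetal programme, 11 of 12 genes were tested, 2 higher and 1 lower with 5 against 5, beside 28.7% and 22.5% of all genes. Mtss1 rose, from 17.1 to 19.6 CPM up to 31.5 to 74.4 CPM (log2 fold change 1.32 ± 0.21). Myh7, the slow myosin linked to overload, had means of 149 and 292 CPM and passed with 5 against 5 and with RIN (log2 fold changes 0.97 and 0.4) but not when summed. Acta1, skeletal actin, was at 441 CPM in M11, 169 to 181 CPM in M12 to M15 and 23 to 199 CPM at 750 d. The natriuretic peptide Nppb had means of 83.9 and 154 CPM, and neither it nor Ankrd1 passed in any of the 3 fits.

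Most endothelial genes were higher at 750 d. All 19 were tested, 14 higher and 0 lower with 5 against 5, and 7 rose and 0 fell in all 3 fits, beside 28.7% and 16.6% of all genes higher. The median was 0.72 (0.73 summed, 0.64 with RIN, 0.43 with both together), and 0.22 in ND males. Their sum was 2975, 2937, 2937, 2965 and 3003 CPM in M11 to M15 and 4035, 3994, 4010, 5752 and 3867 CPM in M31 to M35. The groups did not overlap, and M34 was the highest.

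Sox17, a transcription factor of arterial endothelium, rose most among these 7 (27.5 to 69.2 CPM on average, log2 fold change 1.33 ± 0.2). The VEGF receptors Kdr (0.9) and Flt1 (0.8), the angiopoietin receptor Tek (0.92), Egfl7 (0.97), Emcn (0.67) and Cd93 (0.86) rose too. Pecam1, the classic marker, passed with 5 against 5 (0.47) but not in the other fits, as did the fatty acid chaperone Fabp4 at 758 to 839 CPM and 842 to 1650 CPM. Npr3 passed with 5 against 5 and not in the other fits, with 132 CPM in M31 and 14.6 to 21.8 CPM in M32 to M35. Aqp1, a water channel, was at 35.8 CPM in M34, the library with the highest endothelial sum, and at 233 to 324 CPM in the other 750 d libraries.

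Among class I antigen and interferon-induced genes, the calls were all higher. Of 30 tested, 12 were higher and 0 lower with 5 against 5, beside 28.7% and 22.5% of all genes. In all 3 fits 6 of the 30 rose, a share near the 16.6% of all genes tested. The median was 0.37 (0.19 summed, 0.47 with RIN). Nlrc5, the activator of class I genes, had 4.6, 4.18, 2.74, 2.71 and 3.71 CPM and then 21.6, 9.03, 16.6, 16.5 and 10.3 CPM (log2 fold change 2.04 ± 0.25). Stat2 (1.82) and Irf9 (1.09), which together carry type I interferon signals to the nucleus, rose with Gbp3 (1.49), Oasl2 (1.21) and Iigp1 (0.8). B2m (0.04), H2-D1 (0.25) and H2-K1 (0.38), the class I light and heavy chains, did not pass in any of the 3 fits, nor did Isg15 (0.09).

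Macrophage and class II genes were most abundant in M11. With 20 of 21 tested, 2 were higher and 5 lower with 5 against 5, 0 and 10 when summed, 1 and 1 with RIN. In all fits only Cd68 fell (-0.73). Over all genes tested 28.7% were higher and 22.5% lower with 5 against 5. The shares were 16.8% and 11.3% when summed and 26.1% and 19.1% with RIN, and 10.2% fell in all 3 fits. The list's sum was 2910 CPM in M11, 1074 to 1128 CPM in M12 to M15 and 778.9 to 1271 CPM at 750 d. C1qc, a complement chain made by macrophages, had 232 CPM in M11, 84.9 to 94.8 CPM in M12 to M15 and 51.7 to 78 CPM at 750 d. Cd163, of resident scavenging macrophages, went the other way at 11.2 to 14.3 and 14 to 28.7 CPM and did not pass when summed or with RIN.

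Among B and plasma cell genes 2 of 15 could be tested and 0 passed in any fit, while the sum reached 183.5 CPM in M31 and 142.6 CPM in M11 against 37.59 to 66.77 CPM elsewhere. T and NK cell genes had 0 of 14 tested, 11 of them under 1 CPM.

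Of 12 output-arm genes of the clock, 4 were higher and 3 lower with 5 against 5, beside 28.7% and 22.5% of all genes tested. In all 3 fits 3 rose and 2 fell, and the median was -0.06. Per2, a repressor of the circadian feedback loop, was at 11.4, 17.3, 16.9, 19.4 and 17.5 CPM at 530 d and 109, 61.4, 98.7, 88.4 and 29.5 CPM at 750 d. Its log2 fold change was 2.23 ± 0.29 (SE; edgeR adjusted p = 4.7e-05), with M35 closest to the younger mice. Per3 (1.4) and Nr1d2 (0.88) rose as well. Dbp, which peaks ahead of the Per genes in mouse tissue, fell instead, from 193 to 209 CPM down to 60.5 to 166 CPM (-0.92 ± 0.21), as did Bhlhe41 (-0.6). The opposite arm had 4 of 6 genes tested and 0 in all 3 fits, with Bmal1 too low to test at means of 1.07 and 2.68 CPM. Hours of collection are not given in the labels, and their part in these differences was not tested.

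Immediate early genes had 19 of 22 members tested, 6 higher and 1 lower with 5 against 5, and a median of 0.53 that became -0.04 with RIN as covariate. With 5 against 5, 28.7% of all genes tested were higher. In all 3 fits Egr1 (1.68), Klf4 (0.99) and Klf6 (0.81) rose and Jund (-0.7) fell. Egr1 was at 19.7, 37.4, 33.7, 31.5 and 35.7 CPM at 530 d and at 100, 37.6, 224, 43.9 and 102 CPM at 750 d, barely above the younger mice in M32. Fos itself did not pass (10.9 and 16.1 CPM on average).

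Glucocorticoid-induced genes had 10 of 12 tested, 5 higher and 0 lower with 5 against 5 and 2 that rose in all 3 fits, where 16.6% of all genes tested rose. Their median was 0.5 (0.48 summed, 0.33 with RIN, 0.07 with both together). The kinase gene Sgk1 rose from 22.5, 49.1, 50, 52.5 and 47.7 CPM to 91.3, 84.8, 118, 186 and 118 CPM (log2 fold change 1.43 ± 0.25), and Errfi1 rose too (1.17). Tsc22d3, a classic glucocorticoid target, had 60.3 to 77.7 and 77.9 to 110 CPM and passed with 5 against 5 alone. Klf9, another, did not pass in any fit (-0.06).

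Some chaperone genes were lower. Of 10 heat shock genes tested, 0 were higher and 5 lower with 5 against 5 (22.5% of all genes lower). In all 3 fits 4 fell (10.2% of all genes): Hspe1 (-0.91), Hspb1 (-0.89), Bag3 (-0.79) and Hsp90ab1 (-0.8). Hsp90ab1 had 1170 to 1240 CPM at 530 d and 570 to 818 CPM at 750 d, whereas its stress-inducible relative Hsp90aa1 did not pass (64.6 and 78.1 CPM). In the endoplasmic reticulum, Calr (-0.61), Sdf2l1 (-0.99) and Dnajb9 (-0.72) fell among 15 tested, beside 10.2% of all genes. With 5 against 5, 1 of the 15 was higher and 5 lower, beside 28.7% and 22.5% of all genes. The integrated stress response factors Atf4 (-0.03) and Ddit3 (0.54) did not pass in all 3 fits, and the list's median was -0.03.

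Antioxidant genes had 18 of 20 tested, 2 higher and 7 lower with 5 against 5 (22.5% of all genes lower), 1 and 4 in all 3 fits (10.2% lower), with a median of -0.49 (-0.31 with RIN). The mitochondrial enzymes Sod2 (698 to 338 CPM on average, -1.04) and Prdx3 (272 to 130 CPM, -1.07) fell with the glutathione transferases Gstm1 (-0.84) and Gsta4 (-0.74). Gclc, which limits glutathione synthesis, rose from 6.11 to 10.7 CPM up to 14.3 to 19.3 CPM (1.07 ± 0.16). Gpx3 was at 2040 CPM in M31 and 299 to 760 CPM in the other 750 d libraries, and did not pass.

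Of 12 genes of senescence and cell cycle arrest 8 were tested, 2 higher and 1 lower with 5 against 5, beside 28.7% and 22.5% of all genes. The median was 0.33, and -0.06 with the sum and RIN together. Trp53inp1 (0.98) and Mdm2 (0.65), both induced by p53, rose. Mdm2 had 34.3 to 42 CPM at 530 d and 57.7 to 71.5 CPM at 750 d. The classic p53 target Cdkn1a did not pass (18 and 27.5 CPM on average), and Cdkn2a, the usual senescence marker, was too low to test at means of 1.49 and 0.921 CPM.

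Cytosolic ribosomal protein genes had 85 of 92 members tested. With 5 against 5, 0 were higher and 7 lower, whereas with RIN as covariate 44 were higher and 4 lower. Over all genes tested 28.7% were higher and 22.5% lower with 5 against 5, and 26.1% and 19.1% with RIN. The list's median went from -0.02 to 0.33 with RIN (-0.23 summed). The sum was 56240 CPM in M32, the library with the lowest RIN, 43970 CPM in M11, the next lowest, and 20440 to 29540 CPM in the other 8. Rpl15 (-0.74) and Rpl23a (-1.2) fell in all 3 fits. Reads of these genes can be shared with their many pseudogenes, so single members are uncertain.

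Matrix genes gave no call that held. Of 31 tested, 7 were higher and 4 lower with 5 against 5 but 0 when summed. Over all genes tested 28.7% were higher and 22.5% lower with 5 against 5, and 16.8% and 11.3% when summed. The median was 0.02, -0.12 with RIN and -0.42 with the sum and RIN together. Postn, made by activated fibroblasts, had means of 37.1 and 79 CPM (log2 fold change 1.1) and passed with 5 against 5 alone. Col1a1, Col1a2 and Col3a1, the fibrillar collagens, did not pass (-0.38, -0.17 and 0.21). Thbs1 spread from 4.67 CPM (M32) to 35.6 CPM (M34) within 750 d.

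Fibroblast markers had 12 of 12 tested and 0 in all 3 fits, with a median of -0.17. Smooth muscle and pericyte markers had 8 of 10 tested, 1 higher and 1 lower with 5 against 5 (28.7% and 22.5% of all genes). Their median was -0.04. Acta2 fell (-0.64) though its groups overlapped. Pdgfrb went the other way, from 60 to 87.5 CPM on average without overlap. It passed with 5 against 5 (0.55) and with RIN (0.51) but not when summed (0.49). Wt1, of the epicardium and some endothelium, was the 1 epicardial gene tested and rose from 2.36 to 4.57 CPM up to 6.25 to 38.6 CPM, highest in M34 (log2 fold change 2.14 ± 0.46, and 1.33 with RIN). The other 9 epicardial and mesothelial genes were too low to test. The sum of the list averaged 16.3 CPM at 530 d and 26.9 CPM at 750 d, with M34 at 61.64 CPM. That sum includes Wt1, whose own means were 3.38 and 14.6 CPM. The means of the other members went both ways: Krt19 was higher (1.18 and 4.69 CPM), Upk3b (4.26 and 1.23 CPM) and Msln (2.04 and 0.767 CPM) lower.

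Adipose genes had 3 of 13 tested and 0 in all 3 fits. The adipocyte markers Plin1 and Adipoq were at 2.15 and 1.16 CPM at 530 d and 0.224 and 0.251 CPM at 750 d. Of 5 red blood cell genes tested 1 fell, Bpgm (-0.73), and the globin genes did not pass. Skeletal muscle genes (2 of 9 tested) and nerve genes (2 of 9 tested) had 0 in all 3 fits, though Myl1 (-0.79) and Dbh (-0.78) passed as lower without M31. The 5 sex-linked check genes were not tested. Xist averaged 0.0401 and 0.227 CPM and the Y-linked Ddx3y 45.2 and 66.7 CPM, as male labels call for.

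**Figure D4:**
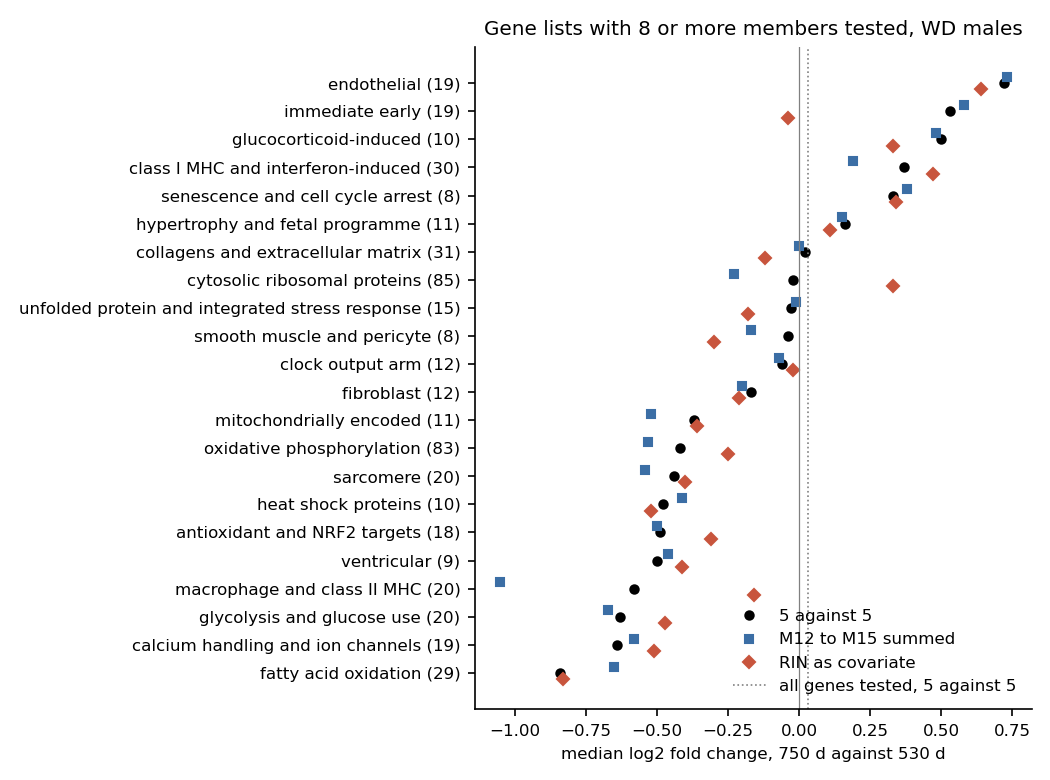
Median log2 fold change (750 d against 530 d) of each gene list with 8 or more members tested, whose number stands in brackets, for 5 libraries against 5 (black circle), M12 to M15 summed (blue square) and RIN as covariate (red diamond). Fatty acid oxidation has the lowest median with 5 against 5 (-0.84) and endothelial genes the highest (0.72), and the fits part most for macrophage, immediate early and ribosomal genes.

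The study names 6 genes that differ by diet in males, and removed Shld1 from its final list because it was also associated with RIN. The genes were chosen on libraries that include these 10, so their direction here is no independent evidence on diet. Per2 (2.23) and Cd93 (0.86) rose and Cebpb (-0.83) fell, while Rhobtb1 (0.2), Shld1 (-0.13) and Col15a1 (-0.3) did not pass in any fit. Cebpb, a transcription factor of acute-phase and adipocyte genes, was at 70.9, 48.8, 52.2, 54.7 and 54.1 CPM and then at 22.8, 30.9, 40.2, 34.1 and 29.8 CPM. Cd93 had 50.9 to 61.3 CPM and 89 to 118 CPM.

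The study's filter of more than 20 counts in all 39 sham libraries leaves out genes that are low in any of them. With edgeR's own filter on these 10 libraries, 14524 genes were tested, 3529 of them outside the study's filter. Of those, 844 were higher and 270 lower with 5 against 5, and 412 (11.7%) passed in all 3 fits, 343 higher and 69 lower. edgeR's filter can be met by the libraries of a single age, so a gene can enter through the age where it is higher. How many of these calls follow from that was not tested. Zmym6, a zinc finger gene, had 1.18, 2.15, 2.54, 3.22 and 2.59 CPM and then 33.1, 10.7, 29.5, 19.5 and 17.6 CPM (log2 fold change 3.15 ± 0.31). Naip5, a sensor of bacterial flagellin with close gene copies, lay at 1.31 to 1.82 and 10.5 to 13.3 CPM (2.9 ± 0.16). Ap4e1 (3.3), Ifi203-ps (3.22) and Alpk1 (3.03) were the other 3 of the 5 highest. Counts at 530 d were as low as 6 for Ap4e1 (M11) and 7 for Alpk1 (M15), so these genes may have been tested only because of their 750 d levels.

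On the lower side, Bckdha, a subunit of the complex that commits branched-chain amino acids to breakdown, had 81.3, 67, 70, 66.2 and 66.2 CPM at 530 d. It had 7.7, 4.07, 11.2, 12.6 and 16.7 CPM at 750 d, a log2 fold change of -2.83 ± 0.27 (edgeR adjusted p = 8.67e-06). Sdr39u1 (-2.42), the forkhead factor Foxo6 (-2.36), Tmem150c (-2.14) and Rab5if (-2.07) followed.

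Most genes that rose or fell on WD went the same way in males on ND. List medians did not all keep their sign: macrophage genes were at -0.58 on WD and 0.33 on ND, and fibroblast genes at -0.17 and 0.2. Fatty acid oxidation kept it, at -0.84 and -0.76. In them 4057 genes passed (36.9%). Of the 2952 genes, 2947 had the same sign on ND (99.8%, against 86.5% of all genes tested) and 2417 were called in the same direction. Their median size was 0.94 on WD, where they were selected, and 0.78 on ND, and over all genes tested it was 0.42 and 0.38. The diet by age interaction over all 20 males called 0 genes (0%) in edgeR, with 373 at an unadjusted p under 0.05 and a smallest adjusted p of 0.996, and 0 in DESeq2 (432 unadjusted). The median SE of the interaction was 0.25, and an interaction that misses the threshold does not show that the diets are alike.

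Single genes show both the likeness and the room left. Nfix averaged 219 and 34.2 CPM on ND (log2 fold change -2.68, interaction 0.26). Peg3 averaged 4.88 and 22.2 CPM there (2.18), with an interaction of 1.14 that did not pass (edgeR adjusted p = 0.996). For mt-Nd2 the ND means were 23300 and 17700 CPM (-0.4, interaction -0.8, adjusted p = 0.996).

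**Figure D5:**
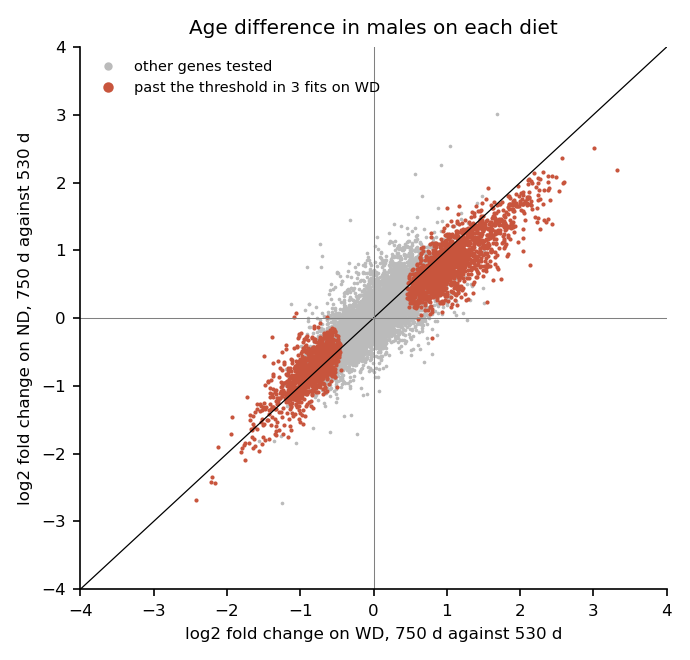
Each point is a gene, with its log2 fold change between 750 d and 530 d on WD (horizontal) and on ND (vertical), red where it passed in all 3 fits on WD, and a diagonal where both are equal. Of the 2952 red genes 2947 have the same sign on both diets, and they lie along the diagonal with many nearer 0 on ND.

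The called genes differed in sequence make-up by direction, with overlapping ranges. The last 500 exonic bases of genes that rose had a median GC content of 40.4%, against 47.4% for those that fell and 44% for all genes tested. The middle part of each set, between its quartiles, ran from 35.6 to 45.2%, from 42.8 to 52.4% and from 38.8 to 49.2%. Exonic length had medians of 8642, 4897 and 6550 bases in the same order. Among the 2198 genes lowest in GC 28.2% rose and 4.55% fell, and among the 2198 highest 6.32% rose and 18.1% fell. With offsets for GC and length in each library 5591 genes passed, and 2725 of 2951 genes of the 3 fits were still called, while 10 had the opposite sign. With M12 to M15 summed as well it was 1952 of 2951. With age in the model, 299 of the 2952 genes were associated with RIN, beside 1356 of the 10995 genes tested. How much of the difference between the ages goes with sequence make-up or RNA integrity was not tested.

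Each group has 5 libraries, of which those at 530 d may hold fewer than 5 mice, and the mice of each age were collected at different times. Age, time since the diet, library-name prefix and any batch in the processing cannot be told apart in WD males. In ND males the names start with W in all 5 at 530 d and in 4 of 5 at 750 d, and without M29, the other one, 4113 genes passed between the ages. Nfix, Rnf5, Dbp, Hsp90ab1, Acta2, Myh6, C1qc, mt-Co1 and Rpsa are among the genes that overlap a gene on the other strand. Whether the counting used strand is not stated. CPM are relative to a library's effective size, so a lower level of 1 group of transcripts can raise the others. Protein and cell numbers were not measured.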

How the data were processed

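Poly-A selected RNA of right ventricles was sequenced by the authors, who checked reads with FastQC 0.11.9, aligned them to the mouse genome with STAR 2.7.8a and counted them with HTSeq-count on gene models cut to the last 500 bases. The deposited values are raw counts per gene, one whole-number count per gene and library, and CPM were computed from them. The table holds 56941 genes, of which 56323 matched GENCODE vM39 (GRCm39), the source of the positions. The release the authors used is not stated.

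Groups followed library titles. The study's filter, a minimum above 20 counts in each of 39 sham libraries of both sexes, left 10995 genes to test. Library totals lay between 12282254 and 18618932 counts. Counts were scaled by TMM over these genes and compared with edgeR 4.0.16 quasi-likelihood tests at a Benjamini-Hochberg adjusted p under 0.05, with 5 libraries against 5, with M12 to M15 summed, and with RIN as covariate. SE is the size of the log2 fold change over the root of F. RIN was compared by a two-sided exact permutation test with scipy 1.17.1. The diet by age interaction used 20 males. DESeq2 1.42.0, R 4.3.3, limma 3.58.1, Python 3.11.15, pandas 2.3.3, numpy 2.4.6 and matplotlib 3.10.9 were also used.

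Named genes were the 10 largest in each direction among genes past the threshold in all 3 fits, without overlap of the groups, with a mean of at least 5 CPM and without predicted symbols, then list members (at most 4 a list), the study's diet genes, and 5 in each direction outside the filter. Beyond this, list members past the threshold in all 3 fits are named. A few genes that the rule or the lists include are not reported here. Any other gene was chosen after its values were seen. The 34 gene lists cover clock arms, immediate early and glucocorticoid-induced genes, energy metabolism, ribosomes, matrix, hypertrophy, sarcomere, calcium handling, stress responses, senescence, immunity, cell types and neighbouring tissues. Members and lists were chosen with earlier results of these data known.

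Alternatives were other scaling factors, filters and tools, a robust fit, all 20 males, each library left out, and no mitochondrially encoded genes. Leaving out both libraries with a RIN under 4, using M11 with 1 of M12 to M15, leaving out libraries beside the sum, and offsets for GC content and length were chosen after seeing the data. The other 56 libraries, of females or irradiated mice, were left out of every test as outside the comparison, and the sham females among them entered the filter alone.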

Additional observations from a re-analysis of the deposited data

Results flagged for a closer look

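Named genes and lists reported here were examined in the 5 libraries at 750 d for a single value far from the other 4, taken as a gap to the nearest value above 0.71 of the whole range. Of 177 sets of values 26 held such a library. The limit flags about 1 in 20 sets of independent, normally distributed values. CPM need not be so distributed and list sums share values with their members, so the 26 cannot be set against that rate. The 530 d libraries were not examined this way, since M12 to M15 are near-identical.

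M31 held 16 of the 26. Its atrial sum was 13370 CPM, with Myl4 at 3960 CPM, Stard10 at 553 CPM and Dkk3 at 598 CPM, all above M32 to M35. The skeletal muscle sum (197.7 CPM), with Myl1 at 188 CPM, the nerve gene Dbh (17.8 CPM) and the B and plasma cell sum (183.5 CPM) were also highest there, as were Ighm (69.5 CPM), Cd74 (174 CPM), B2m (472 CPM), Gpx3 (2040 CPM), Npr3 (132 CPM) and Foxo6 (5.5 CPM). Lowest in M31 were the sarcomere sum, at 61130 CPM, and Tnnt2, at 7690 CPM.

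M32, the library with the lowest RIN, had the highest ribosomal protein sum (56240 CPM), with Rplp0 at 1750 CPM and Rpsa at 2300 CPM. It also stood apart for the clock gene Usp2 (241 CPM) and had the lowest Tesk1 (1.96 CPM).

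M34 was highest for the endothelial sum (5752 CPM), the glucocorticoid-induced sum (1016 CPM) and Wt1 (38.6 CPM). M33 was highest for Mdm2 (71.5 CPM) and M35 for Gal3st3 (4.85 CPM). What sets these libraries apart was not tested.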

How the results depend on the processing

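With 5 libraries against 5, 5628 genes passed. With M12 to M15 summed the count was 3082, with RIN added 1770, and without M31 as well 1733. DESeq2 on the sum gave 3676 and all 20 males with the sum 3585. M11 beside M12, M13, M14 or M15 alone gave 2997, 3034, 2981 or 3114. On the sum, leaving out M31, M32, M33, M34 or M35 gave 2522, 4189, 2229, 2675 or 2518, and leaving out M11 gave 0 in edgeR (2607 at an unadjusted p under 0.05), the lone column being assumed to vary like the others. Offsets for GC content and length on the sum gave 2645. The cause was not tested.

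Other scaling factors, filters and tools and each library left out in turn gave 5079 to 6475 with 1 library left out, 5928 with DESeq2 and 6721 without a filter, where the log2 fold change of a gene tested both ways shifted by a median of -0.12. The interaction called 0 genes in edgeR (373 unadjusted) and in DESeq2 (432 unadjusted). The RIN difference ranged from 0.88 to 1.8 with 1 library left out.

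List medians moved with RIN as covariate to -0.04 (immediate early), -0.51 (calcium handling), -0.18 (unfolded protein response), -0.31 (antioxidant), -0.16 (macrophage, -1.05 when summed), -0.3 (smooth muscle), 1.33 (epicardial) and 0.15 (study diet genes). The cause was not tested.

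Under the alternatives listed first, 2837 named-gene results kept direction and side of the threshold, 249 lost the threshold, 56 gained it and 5 reversed. Under those chosen after seeing the data the numbers were 1329, 466, 32 and 7. Those that reversed with 1 library left out, all without M31, ranged from -3.02 to 1.33 (Myl4), -1.18 to 0.44 (Stard10), -1.54 to 1.96 (Dkk3), -0.79 to 0.18 (Myl1) and -0.78 to 0.3 (Dbh). Without M31 all 5 of these genes passed as lower. On the sum without M31, Myl4 was at -3.3, Dkk3 at -1.72 (-1.42 with RIN) and Myl1 at -0.69. Thbs1 was at -0.04 on the sum with RIN and without M31, and Pdgfra at -0.05 with the offsets and -0.14 with the sum as well. No paired analysis was possible because the groups share no replicate numbers. Totals over 12282254 counts limit the precision of genes near 20 counts most.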
